A study of Mus musculus domesticus with 6 samples.

Results

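Sesn1, Sesn2, Sesn3, Tigar, Ddit4, Fdxr, Gdf15 and Phlda3 are 8 target genes of the transcription factor p53 whose products act on growth signalling and on oxidation state. They were taken by symbol from the 55359 entries of the deposited gene tables, and all 8 were present. Of these, 7 had enough counts to be tested beside 13117 genes in all, and Gdf15 had none. The cells were BFU-E (burst-forming units of the erythroid lineage, its earliest committed progenitors) sorted from mouse fetal liver at E14.5. The 3 Cre-negative samples were labelled Exosc3 fl/fl Cre- and the 3 Cre-positive samples Exosc3 fl/fl Cre+. Floxed Exosc3 alleles were thus shared by both groups, and the strain is given as Exosc3-floxed and Vav1-Cre. Vav1-Cre is active throughout the blood lineages and not in erythroid cells alone. Exosc3 encodes a cap subunit of the RNA exosome, which degrades and trims RNA from the 3′ end. The design text places 2 samples in each of 3 litters, and the labels do not tie a sample to a litter.

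Active p53 restrains cells in several ways besides cell cycle arrest and apoptosis. Sestrins 1, 2 and 3 lower signalling by the growth kinase complex mTORC1, in part by binding the GATOR2 complex and through AMPK, and they also limit peroxides. DDIT4 (REDD1) acts on mTORC1 through the TSC complex, and PHLDA3 competes with the kinase AKT for membrane lipids. TIGAR lowers fructose-2,6-bisphosphate and so shifts glucose toward the pentose phosphate pathway, ferredoxin reductase (Fdxr) passes electrons to the mitochondrial ferredoxins, and GDF15 is a secreted stress factor of the TGF-beta superfamily. Sesn2, Ddit4 and Gdf15 are also known targets of the stress factor ATF4, Sesn3 of FOXO factors, and Ddit4 of glucocorticoids and hypoxia.

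Total expected counts, the reads that the authors' counting model assigned to genes, lay between 89629958 and 124931218 per library after rounding to whole numbers. Exosc3 was lower in all 3 Cre-positive libraries, at 26.4 ± 4.07 CPM against 48.1 ± 3.80 CPM (SD, n = 3 each), where CPM gives counts relative to the TMM-scaled library total. Its log2 fold change was -0.87 (SE 0.22, edgeR adjusted p = 0.259). The labels give a sort for GFP in all 6 samples, yet the deposited eGFP entry had 91, 0 and 197 counts in Cre-negative replicates 1, 2 and 3 and 4884, 3311 and 4206 counts in the Cre-positive ones. The Cre-negative libraries thus go against that label, and a difference in sort or reporter between the groups cannot be told apart from Cre status in any result given here. A gene seen in 1 library only had a median of 108 reads there, which corresponds to 0.869 to 1.22 CPM, so values near 1 CPM are at the level typical of such genes. Reads were not counted by molecule, and floors of 3 counts cover counting error of reads alone. Among markers of other cells, the summed level of 11 neutrophil and monocyte markers ran from 578 to 1513 CPM without Cre and from 229.8 to 525 CPM with it. The 10 lymphoid markers summed to 49.1 to 126.5 CPM and to 1.59 to 17.4 CPM, and 9 stem and multipotent progenitor markers to 269.7 to 561 CPM and to 111.9 to 273 CPM. The erythroid genes, 14 in the list, summed to 1551 to 1788 CPM and to 1742 to 2201 CPM, and none of them was at 0 in all libraries. Of the 12 erythroid genes tested 1 passed, Car2 (carbonic anhydrase 2), at 226.5 ± 18.8 against 482.9 ± 67.3 CPM (log2 fold change 1.09, SE 0.12, edgeR adjusted p = 0.00787, up to 0.085 over the alternatives). No gene of the other marker lists passed by edgeR or limma-voom. DESeq2 called 3 neutrophil and monocyte, 1 lymphoid and 1 stem and progenitor marker lower, beside 1.68% of genes called lower by that tool. By edgeR, 5 of 9 tested neutrophil and monocyte, 2 of 6 lymphoid and 3 of 9 stem and progenitor markers were lower at an unadjusted p under 0.05. Of all tested genes 4.19% were. The part of these markers in the differences given here was not tested. Hepatocyte markers reached 8.35 CPM in sum at most, with Afp, Apoa2, Ttr, Serpina1a and Fgb at 0 in all 6 libraries, and macrophage markers reached 3.73 CPM, with Adgre1, Vcam1, C1qa, C1qc, Marco and Timd4 at 0. In bulk RNA, fewer cells of a type and less RNA per cell cannot be told apart.

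The 3 sestrins are paralogs, and a reader may ask whether reads of one could have been counted for another. Coding sequences from GENCODE release M21 were 65.7% identical between Sesn1 and Sesn2, 68.0% between Sesn1 and Sesn3 and 65.4% between Sesn2 and Sesn3 over aligned bases. The longest run shared exactly by 2 of them was 23 bases, between Sesn2 and Sesn3. A 60-base coding window was chosen for likeness over all 3 genes together. Sesn2 and Sesn3 do not share a run of 23 bases within it, so it need not be where confusion between 2 of the genes would be most likely. The window is a description of likeness only. Of its 60 bases 42 were the same in all 3 genes and are in lower case, and capitals mark positions where at least 1 gene differs. It covers coding bases 1215 to 1274 of Sesn1, 1002 to 1061 of Sesn2 and 1038 to 1097 of Sesn3, counted from the start codon.
Sesn1: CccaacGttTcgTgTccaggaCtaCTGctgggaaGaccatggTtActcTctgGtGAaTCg
Sesn2: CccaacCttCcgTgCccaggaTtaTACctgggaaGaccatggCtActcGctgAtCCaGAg
Sesn3: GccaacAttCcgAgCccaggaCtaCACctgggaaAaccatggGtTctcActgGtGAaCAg
No stretch of 75 bases in the coding transcript of any of the 8 genes occurred in a transcript of another gene, except for 1.15% of such stretches in Tigar, which overlaps the noncoding gene Platr31 on the opposite strand. Platr31 had 0 counts in all 6 libraries. Sesn2 overlaps the noncoding gene Gm12981 on the same strand in that annotation. Gm12981 had 0 counts in the Cre-negative libraries and 0, 134 and 130 counts in Cre-positive replicates 1, 2 and 3, against 3295 or more for Sesn2 there. Sesn1 overlaps 9930024M15Rik on the same strand, whose mean level was 4.85 ± 1.90 CPM without Cre and 5.49 ± 2.21 CPM with it (SD, n = 3 each).

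Sesn2 and Phlda3 were higher in every Cre-positive library than in any Cre-negative one. Sesn2 was about 3 times as high in Cre-positive cells with little spread, and Phlda3 went from reads in a single Cre-negative library to about 30 CPM. Ddit4 and Sesn1 had higher Cre-positive means with overlapping groups. Fdxr, Sesn3 and Tigar had means below those of Cre-negative cells with wide overlap, and Gdf15 was not detected. By edgeR's quasi-likelihood test none of the 7 tested genes passed an adjusted p of 0.05 in either direction, where 0.122% of all tested genes were called higher and 0% lower. Without adjustment, 2 of the 7 (Sesn2 and Phlda3) were higher at p under 0.05, beside 4.05% of all tested genes (4.19% were lower at that p). DESeq2 called 1 of the 7 (Sesn2), beside 1.81% of genes called higher and 1.68% lower by that tool, and limma-voom called 0, beside 0.152% of genes, with 2 at an unadjusted p under 0.05. Of all tested genes 7.53% had all Cre-positive above all Cre-negative libraries. The median log2 fold change of the 7 was 0.46, and that of all tested genes -0.01. Ddit4 and Phlda3 entered the test only through their Cre-positive counts, so counts and medians over the 7 describe these genes and support nothing.

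**Figure D1:**
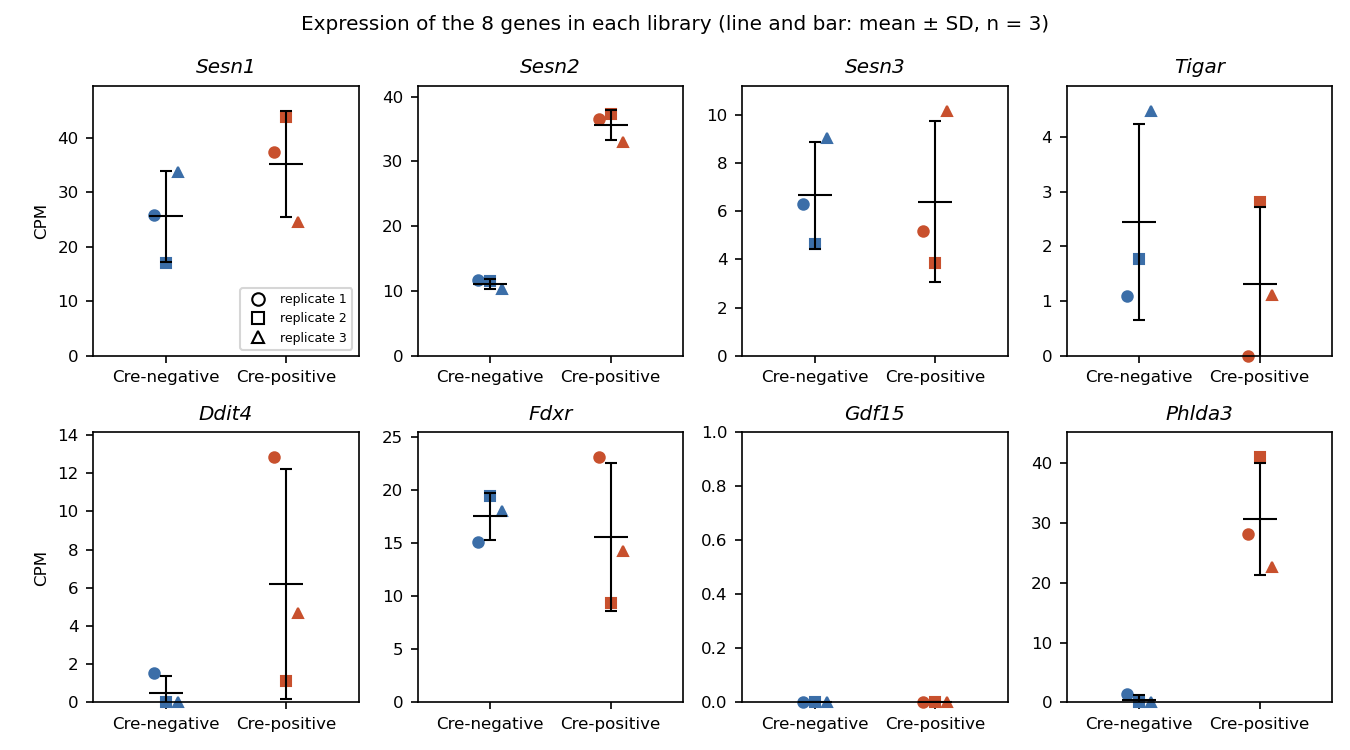
Each panel plots the level of 1 gene in CPM on the y axis (from 0) for the 3 Cre-negative and 3 Cre-positive libraries, with symbols for replicate number and the mean ± SD as a line and bar; bars that would pass below 0 end at the axis. The groups are apart for Sesn2 and Phlda3, overlap for Sesn1, Sesn3, Tigar, Ddit4 and Fdxr, and Gdf15 is at 0 in all 6 libraries.

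Sesn2 (ENSMUSG00000028893.9) stood at 11.7, 11.5 and 10.3 CPM in the Cre-negative libraries (replicates 1, 2 and 3, in this order throughout). The Cre-positive libraries gave 36.5, 37.2 and 33.0 CPM. The lowest Cre-positive library was far above the highest Cre-negative one, and the coefficient of variation was 6.92% and 6.35% within the groups, the smallest of the 7 tested genes in each group. The ratio of means was 3.20-fold (11.1 ± 0.771 against 35.6 ± 2.26 CPM, SD, n = 3 each). Its log2 fold change came to 1.68 (SE 0.27, 95% interval 1.08 to 2.28, edgeR adjusted p = 0.0647). Over 14 alternatives it stayed between 1.62 and 1.73, and its adjusted p ranged from 7.81e-09 to 0.303. It passed by DESeq2 (adjusted p = 7.81e-09) and by edgeR without a filter on low counts (adjusted p = 0.0350, where 0.195% of genes were called higher).

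Sesn1 (ENSMUSG00000038332.14), the family member first described as a p53 target, stood at 25.9, 17.1 and 33.8 CPM in Cre-negative cells. In Cre-positive cells it stood at 37.4, 43.8 and 24.7 CPM. Cre-positive replicates 1 and 2 were above all Cre-negative libraries, while Cre-positive replicate 3 was below Cre-negative replicates 1 and 3. The means were 25.6 ± 8.37 and 35.3 ± 9.74 CPM, with a log2 fold change of 0.46 (SE 0.33, 95% interval -0.27 to 1.20, edgeR adjusted p = 0.870). The deposited mean transcript length of Sesn1 was shorter in Cre-negative replicates 2 and 3 than in the other libraries. The part of this in the difference in counts was not tested. With effective length as an offset the log2 fold change was 0.17.

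Sesn3 (ENSMUSG00000032009.9), the sestrin known as a FOXO target, measured 6.28, 4.66 and 9.02 CPM without Cre and 5.18, 3.84 and 10.2 CPM with it. The groups overlapped over nearly their whole range. The log2 fold change was -0.06, with a 95% interval of -1.58 to 1.47 that leaves room for more than a 2-fold change either way (edgeR adjusted p = 0.999). With effective length offsets it was 1.00.

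Per transcript length, the sestrin pool was larger and had a different make-up in Cre-positive cells. Summed over the 3 genes it was 14.0, 13.0 and 19.7 TPM in the Cre-negative and 27.7, 27.7 and 23.4 TPM in the Cre-positive replicates (TPM, the authors' value scaled for transcript length). Sesn2 made up 29.7%, 31.5% and 19.2% of that sum in Cre-negative libraries and 45.7%, 47.6% and 49.9% in Cre-positive libraries. Sesn1 made up 59.7%, 59.5% and 74.4%, and then 42.3%, 50.6% and 33.7%. Sesn1 was the most abundant sestrin in every Cre-negative library. In Cre-positive libraries Sesn2 was the most abundant in replicates 1 and 3 and Sesn1 in replicate 2. These shares follow from the values of the same genes above and were not tested on their own.

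**Figure D2:**
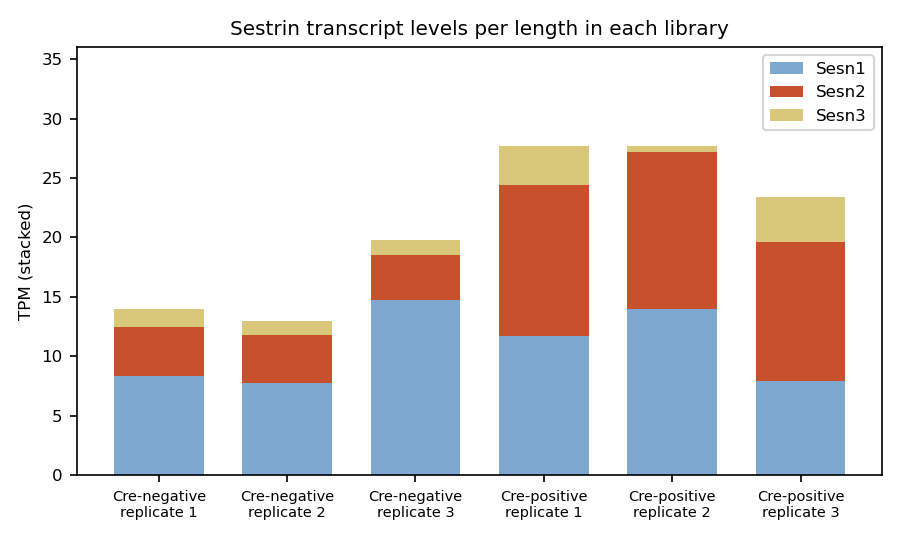
Stacked bars give the TPM of Sesn1, Sesn2 and Sesn3 in each of the 6 libraries, on an axis from 0. The Sesn2 segment is near 4 TPM in the Cre-negative libraries and between 11.7 and 13.2 TPM in the Cre-positive libraries, while the Sesn1 segments of the groups overlap.

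Phlda3 (ENSMUSG00000041801.6), a small protein made almost wholly of a lipid-binding PH domain, had 135, 0 and 0 counts in Cre-negative replicates 1, 2 and 3, and 3500, 3625 and 2612 counts in the Cre-positive replicates. In CPM these were 1.40, 0 and 0 against 28.2, 40.97 and 22.7. Every Cre-positive library was above every Cre-negative one, and the 135 reads of Cre-negative replicate 1 were close to the 108 reads typical of a gene seen in 1 library only. The ratio of means was 65.5-fold (0.467 ± 0.810 against 30.6 ± 9.39 CPM, SD, n = 3 each). The difference was 6.05 on the log2 scale (SE 1.66, 95% interval 2.32 to 9.78) and did not pass (edgeR adjusted p = 0.279).

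A single library decided that call for Phlda3. Without Cre-negative replicate 1 the adjusted p was 0.00314 (edgeR, with 0.108% of genes called higher in that fit), and over all 14 alternatives it ranged from 0.00314 to 0.595. Both Cre-negative libraries left in that fit had 0 counts, and Phlda3 entered it only through its Cre-positive counts. Its fitted fold is thus no bound, and its adjusted p is no support for a difference. Against a floor of 3 counts in each of them, which covers counting error of reads alone, the Cre-positive mean was 1160-fold higher. Against 108 reads in each of them it was 32.2-fold higher, so 1160-fold is no lower bound. With Cre-negative replicate 1 included, the ratio of means for Phlda3 was 65.5-fold. Its close relatives on the AKT list were Phlda1, at 1.01 ± 1.34 against 4.49 ± 1.92 CPM (log2 fold change 2.15, SE 1.85, edgeR adjusted p = 0.923), and Phlda2, with 0 counts in all 6 libraries.

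Ddit4 (ENSMUSG00000020108.5) had 146, 0 and 0 counts in the Cre-negative and 1596, 98 and 542 counts in the Cre-positive replicates. Cre-positive replicates 1 and 3 were above all Cre-negative libraries, and Cre-positive replicate 2 was below Cre-negative replicate 1. In CPM the means were 0.506 ± 0.876 and 6.22 ± 6.02, a ratio of 12.3-fold with an SD nearly as large as the Cre-positive mean. The log2 fold change was 3.62 (SE 2.31, 95% interval -1.56 to 8.80, edgeR adjusted p = 0.834). It was 12.4 without Cre-negative replicate 1 and 2.52 without Cre-positive replicate 1, and no alternative called it. The related gene Ddit4l averaged 0.139 ± 0.240 against 3.42 ± 2.94 CPM and did not pass (edgeR adjusted p = 0.742).

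Tigar (ENSMUSG00000038028.10) was scarce in both groups, with 105, 185 and 557 counts in the Cre-negative and 0, 249 and 128 counts in the Cre-positive replicates. The highest library was Cre-negative and the lowest Cre-positive, with the other values interleaved. The log2 fold change was -0.90 with a 95% interval of -5.34 to 3.54 (SE 1.98, edgeR adjusted p = 0.998), which leaves room for a change of several fold in either direction. Effective length offsets turned it to 1.37, with Cre-positive replicate 2 assigned to a short transcript.

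Fdxr (ENSMUSG00000018861.9) measured 15.1, 19.4 and 18.0 CPM without Cre and 23.1, 9.38 and 14.3 CPM with it. The Cre-positive libraries held both the highest and the lowest value, and their coefficient of variation was 44.6% against 12.7% in the other group. The log2 fold change was -0.17 (SE 0.40, edgeR adjusted p = 0.999). Its 95% interval of -1.06 to 0.73 leaves out a 2-fold higher level, and without Cre-positive replicate 2 the value was 0.09.

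Gdf15 (ENSMUSG00000038508.8) had 0 counts in each of the 6 libraries. A count of 0 allows up to 3 counts, which is 0.0241 to 0.0339 CPM depending on the library, and this covers counting error of reads only. Genes with reads in 1 library only had a median of 108 there, far above that floor.

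**Figure D3:**
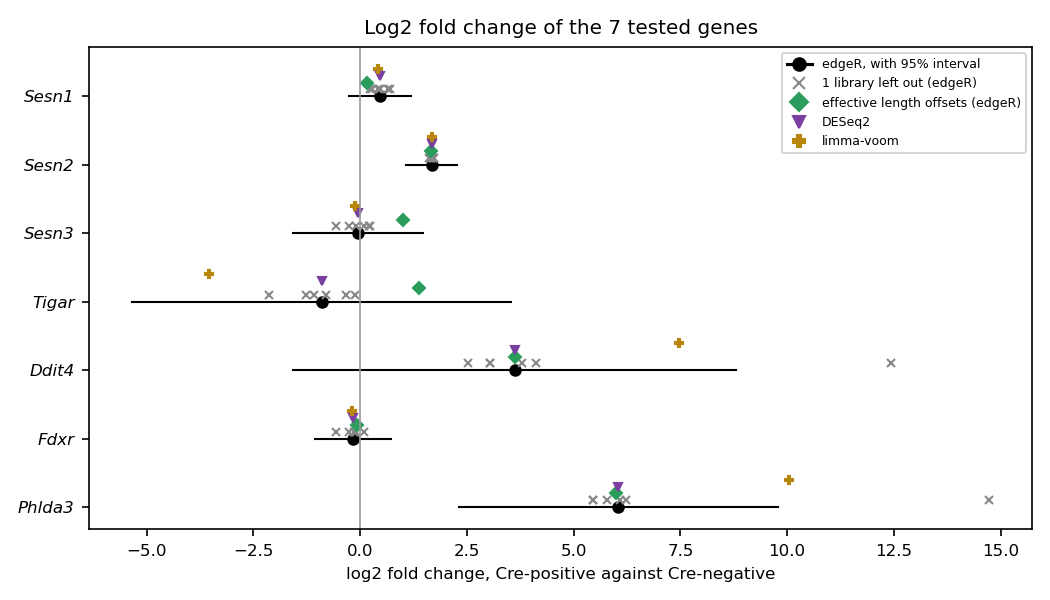
The x axis gives the log2 fold change of Cre-positive against Cre-negative cells for the 7 tested genes; black points and lines are the edgeR value and its 95% interval, and other symbols are the alternatives named in the key. Symbols for Sesn2 lie between 1.62 and 1.73, those for Tigar and Sesn3 fall on both sides of 0, and Ddit4 and Phlda3 each have 1 value above 12 from leaving out Cre-negative replicate 1.

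Levels can be set in order between genes only per length. In Cre-negative cells the order by mean TPM was Fdxr (12.9 ± 2.33), Sesn1 (10.2 ± 3.86), Sesn2 (4.01 ± 0.193), Sesn3 (1.3 ± 0.164), Tigar (0.843 ± 0.639), Phlda3 (0.473 ± 0.820) and Ddit4 (0.397 ± 0.687), with SD over 3 libraries. Fdxr and Sesn1 overlapped, Sesn2 was apart from its neighbours on either side, and the values of Sesn3, Tigar, Phlda3 and Ddit4 overlapped. In Cre-positive cells the order was Phlda3 (30.7 ± 9.60), Sesn2 (12.5 ± 0.756), Fdxr (12.0 ± 4.74), Sesn1 (11.2 ± 3.09), Ddit4 (4.79 ± 4.58), Sesn3 (2.55 ± 1.80) and Tigar (2.13 ± 3.37). Phlda3 was above the other genes in all 3 libraries, Sesn2, Fdxr and Sesn1 overlapped, and so did Ddit4, Sesn3 and Tigar. Among genes with a TPM above 0, Phlda3 stood above 64.2% to 75.3% of them in Cre-positive libraries. Sesn2 stood above 30.6% to 32.8% of detected genes in Cre-negative and above 49.4% to 52.1% in Cre-positive libraries.

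The deposited mean transcript length shows which isoforms the authors' model used, and for Phlda3 and Sesn2 it was the coding transcript throughout. Sesn2 and Ddit4 have 1 annotated transcript each. For Phlda3 the length was 1435 bases, that of its coding isoform, in all 4 libraries with reads. For Sesn1 it was 3809 bases, the longer of 2 long coding isoforms, in all 3 Cre-positive libraries and in Cre-negative replicate 1. Cre-negative replicates 2 and 3 had 2804 and 3006 bases, between that isoform and the 2600-base one. The effective length of Sesn1, which subtracts what a fragment cannot cover, was 2875 ± 531 bases in Cre-negative and 3476 ± 2.29 bases in Cre-positive libraries (SD, n = 3 each; exact permutation p = 0.3, two-sided, 0.7 after adjustment over 3 genes, where 0.1 is the smallest p possible). Mean CPM of Sesn1 was 1.38-fold higher in Cre-positive libraries, while mean TPM was 10.2 and 11.2.

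Tigar reads were assigned to the 3651-base coding transcript in all 3 Cre-negative libraries and in Cre-positive replicate 3. In Cre-positive replicate 2 they were assigned to an 855-base transcript annotated as a target of nonsense-mediated decay, which rests on 249 reads in 1 library. Sesn3 length ranged from 2024 to 9125 bases among libraries, and its effective length was 5848 ± 2150 bases in Cre-negative and 4479 ± 3786 bases in Cre-positive libraries (exact permutation p = 0.5, n = 3 each). For Fdxr it was 1554 ± 101 and 1452 ± 255 bases (exact permutation p = 0.7, n = 3 each), lowest in Cre-positive replicate 3. Neither difference was larger than the spread between libraries.

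**Figure D4:**
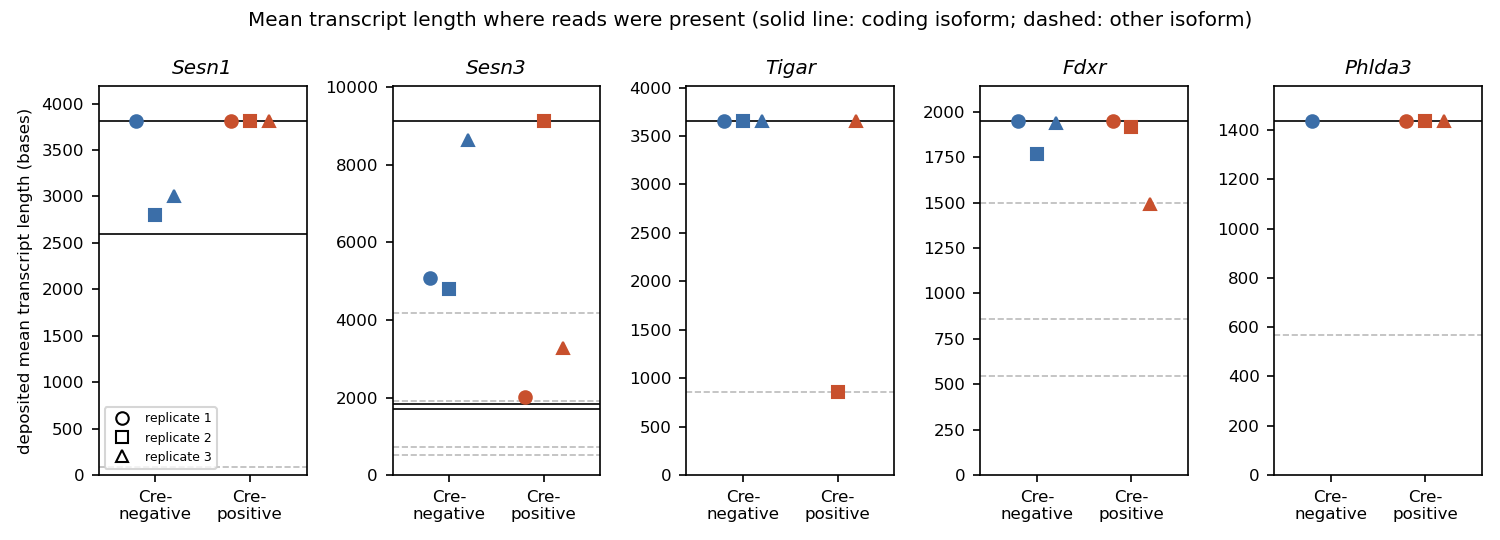
Points give the mean transcript length in bases deposited for each library with reads, for the 5 tested genes with more than 1 transcript, and horizontal lines give the lengths of annotated isoforms. Phlda3 points lie on its 1435-base coding isoform, Tigar has 1 point at 855 bases (Cre-positive replicate 2), and Sesn1 has 2 Cre-negative points below the 3809-base line.

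AU-rich elements in 3′ UTRs are known to bring decay factors, the exosome among them, to an mRNA, so the pentamer ATTTA and the nonamer TTATTTATT were counted on the transcript strand of the longest coding isoform. A nonamer holds a pentamer, so the counts overlap. None of the 8 genes held the nonamer, which 1.49% to 26.5% of mouse 3′ UTRs of like length (0.8 to 1.25 times) held. The pentamer was absent from the 3′ UTRs of Phlda3, Ddit4 and Fdxr, and occurred once in Sesn2, where 62.9%, 68.9%, 37.4% and 88.3% of UTRs of like length held it. Sesn1 held 2 copies, Tigar 4 and Sesn3 13, beside medians of 2, 5 and 14 in UTRs of like length. Gdf15 held 5 copies in 150 bases, where 19.3% of UTRs of like length held any. These are letter matches in the annotated sequence and describe no measured decay.

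Other genes of the p53 network held called members. Trp53, which encodes p53, had 241.5 ± 3.53 against 279 ± 5.89 CPM (log2 fold change 0.21, SE 0.09, edgeR adjusted p = 0.559). Of 23 other p53 genes, all tested, 3 passed upward and 0 downward by edgeR, with a median log2 fold change of 1.39. Those 3 were Cdkn1a (p21, a cell cycle inhibitor), Ccng1 (cyclin G1) and Zmat3 (an RNA-binding protein). DESeq2 called 14 of the list upward and limma-voom 4, and neither called any downward. Over all genes the shares called higher were 0.122% by edgeR, 1.81% by DESeq2 and 0.152% by limma-voom. No read of Cdkn1a was found without Cre, so it entered the test through its Cre-positive counts only, and its level with Cre was 58.5 ± 3.89 CPM (SD, n = 3). It passed by edgeR (adjusted p = 0.000111) and did not by limma-voom (adjusted p = 0.178). Mdm2, the ubiquitin ligase that limits p53, was at 58.7 ± 9.48 and 121.6 ± 31.0 CPM (log2 fold change 1.05, SE 0.21, edgeR adjusted p = 0.154, and 6.55e-06 by DESeq2). The lists were written with earlier results of these data known, so their counts are not independent evidence of direction.

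Among 13 further p53 targets in metabolism and redox control, 1 passed upward and 0 downward by edgeR, beside 0.122% and 0% of all tested genes. The median log2 fold change was 0.36. The 1 that passed was Cpt1c, a brain-type carnitine palmitoyltransferase (0.0139 ± 0.0240 against 24.3 ± 1.45 CPM, edgeR adjusted p = 0.00301, and 0.312 by limma-voom). Cpt1c had 4, 0 and 0 counts in the Cre-negative libraries, so it entered the test through its Cre-positive counts only. Lpin1, a phosphatidate phosphatase and transcriptional coactivator, averaged 23.7 ± 8.66 against 73.9 ± 11.1 CPM (log2 fold change 1.64, SE 0.28, edgeR adjusted p = 0.0895), and it passed by limma-voom (0.0275), by DESeq2 (4.26e-08) and by edgeR without a filter on low counts (0.0230). Trp53inp1, an antioxidant and autophagy factor, averaged 4.87 ± 4.36 against 44.8 ± 1.43 CPM (log2 fold change 3.20, SE 0.63, edgeR adjusted p = 0.151), and it passed by DESeq2 (6.94e-09), by edgeR without that filter (0.0351) and without Cre-negative replicate 3 (0.0258). In both genes every Cre-positive library was above every Cre-negative one. The glutathione peroxidase gene Gpx1 was lower in all 3 Cre-positive libraries, at 241.7 ± 16.2 against 295 ± 21.3 CPM (edgeR adjusted p = 0.430).

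The partners through which sestrins and DDIT4 act showed no called gene by edgeR or limma-voom. DESeq2 called Nprl3 upward (adjusted p = 0.00656) and Lamtor1 (0.0161) and Eif4ebp1 (0.0384) downward. Its calls in these and the following lists are to be read beside 1.81% of genes called higher and 1.68% lower by that tool. At an unadjusted p under 0.05, the counts in these and the following lists are to be read beside 4.05% of all tested genes upward and 4.19% downward. Of 14 tested genes of the GATOR complexes and amino acid sensors, 1 had an unadjusted p under 0.05 upward and 0 downward, with a median log2 fold change of 0.03. That gene was Nprl3, a GATOR1 subunit, at 9.98 ± 0.129 against 22.0 ± 0.522 CPM (log2 fold change 1.14, SE 0.32, edgeR adjusted p = 0.289), and 0.36 with effective length offsets. Of 29 tested genes of the mTOR complexes and TSC branch, 0 had an unadjusted p under 0.05 upward and 2 downward, with a median of 0.02. Those were Lamtor1, a lysosomal anchor of mTORC1 (37.0 ± 0.275 against 19.2 ± 5.81 CPM, edgeR adjusted p = 0.316), and Eif4ebp1, a translational repressor that mTORC1 phosphorylates (59.2 ± 11.3 against 37.6 ± 3.33 CPM, edgeR adjusted p = 0.368). Tsc1, Tsc2 and Mtor had log2 fold changes of -0.15, 0.02 and 0.05. Of 6 tested AMPK genes 1 had an unadjusted p under 0.05, the catalytic subunit Prkaa1 (log2 fold change 0.36, SE 0.16, edgeR adjusted p = 0.591), and the median was 0.32. Of 14 tested AKT signalling and PHLDA genes 0 had one, and the median was -0.11.

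By edgeR and limma-voom no gene around TIGAR and Fdxr passed. DESeq2 called 1 (Taldo1, higher, adjusted p = 0.00132), beside 1.81% of genes called higher by that tool. Of 18 tested genes of fructose-2,6-bisphosphate, upper glycolysis and the pentose phosphate pathway, 1 had an unadjusted p under 0.05 upward and 1 downward, with a median log2 fold change of 0.04. Taldo1, the transaldolase of the pentose phosphate pathway, averaged 136 ± 3.93 against 193.6 ± 26.3 CPM (edgeR adjusted p = 0.235), and Pfkp, a phosphofructokinase, 43.6 ± 2.89 against 27.9 ± 3.35 CPM (edgeR adjusted p = 0.402). Of 20 tested NRF2 targets and antioxidant genes 2 had an unadjusted p under 0.05 in each direction, with a median of 0.05. The upward pair was Gsr, glutathione reductase (120.1 ± 6.00 against 151.3 ± 7.22 CPM), and Nfe2l2, which encodes NRF2 (98.2 ± 13.4 against 130.2 ± 1.76 CPM), with edgeR adjusted p of 0.391 and 0.402. The downward pair was Gpx1 (log2 fold change -0.29, edgeR adjusted p = 0.430) and Prdx1 (log2 fold change -0.33, edgeR adjusted p = 0.558). Of 16 tested ferredoxin and iron-sulfur cluster genes 1 had an unadjusted p under 0.05, Iba57, an assembly factor (log2 fold change 0.77, SE 0.31, edgeR adjusted p = 0.535). The ferredoxins Fdx1 and Fdx2, listed there as Fdx1l, had log2 fold changes of 0.63 (SE 0.59) and 0.06 (SE 0.46), and Cyp11a1, a steroid-making partner of Fdxr, had 0 counts in all 6 libraries.

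Regulators other than p53 that are known to act on Sesn2, Sesn3, Ddit4 and Gdf15 were also measured. Of 15 tested genes of the ATF4 and CHOP branch 0 passed by edgeR or limma-voom. DESeq2 called 1 (Psat1, lower, adjusted p = 0.0150), beside 1.68% of genes called lower by that tool. By edgeR 2 of the 15 had an unadjusted p under 0.05 in each direction, and the median log2 fold change was -0.01. Atf4 was at 245.7 ± 10.2 against 205.8 ± 22.3 CPM (log2 fold change -0.26, SE 0.11, edgeR adjusted p = 0.579). Psat1, a serine synthesis enzyme, was at 164.5 ± 27.0 against 118.2 ± 5.92 CPM (edgeR adjusted p = 0.313), Ppp1r15a, a phosphatase subunit, at 24.7 ± 6.17 against 44.6 ± 13.7 CPM (edgeR adjusted p = 0.433), and Asns, asparagine synthetase, at 117.4 ± 27.7 against 160.3 ± 23.7 CPM (edgeR adjusted p = 0.572). Chac1 and Atf3 had 0 counts in all libraries. Of 10 tested FOXO factors and targets 0 passed by any of the 3 tools, with a median of -0.40 and 8 negative log2 fold changes. An unadjusted p under 0.05 was found for 1 of them, Irs2, which was higher (log2 fold change 0.63, SE 0.26, edgeR adjusted p = 0.559). Foxo3 had a log2 fold change of 0.23 (SE 0.10, edgeR adjusted p = 0.616). These are RNA levels, and the activity of the regulators was not measured. Of 12 tested glucocorticoid and hypoxia genes 0 passed by any of them, 0 had an unadjusted p under 0.05, and the median was -0.02. GDF15 acts through GFRAL and RET, and both receptor genes had 0 counts in all libraries. Of 14 tested genes in that list 0 passed by any of them, with a median of -0.13.

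**Figure D5:**
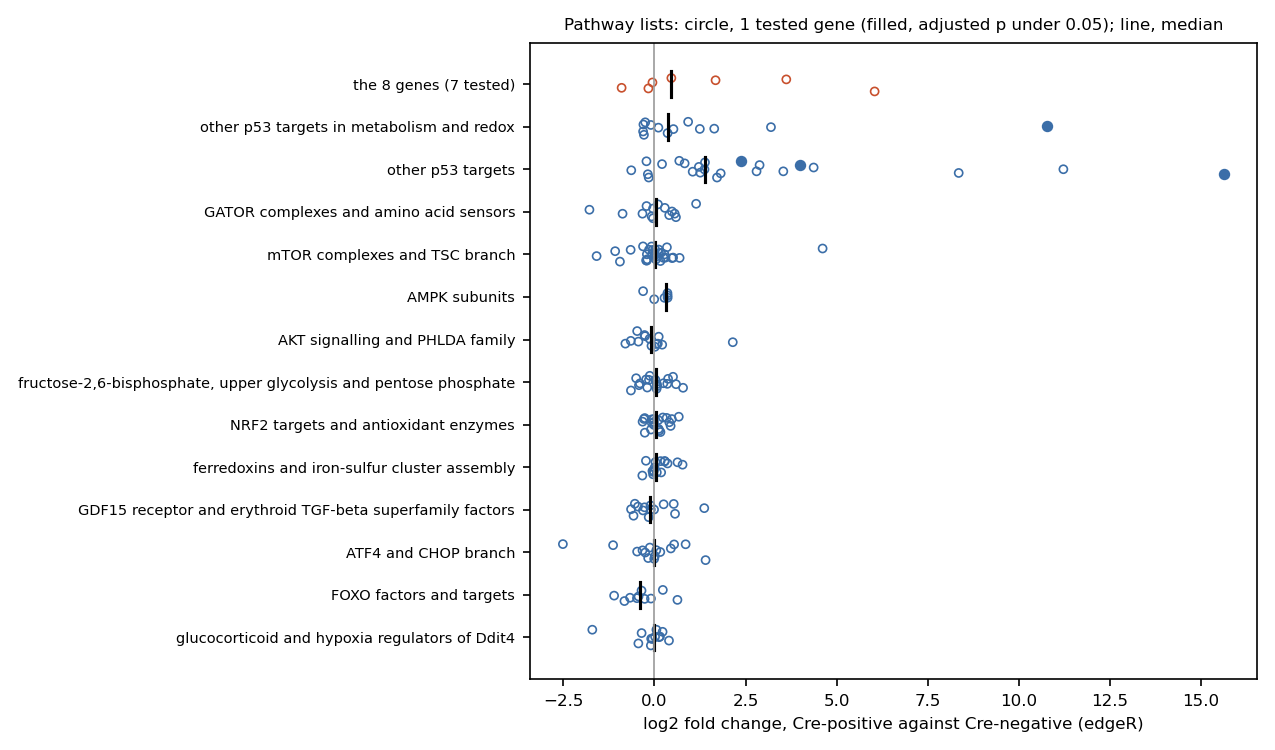
Each circle is the log2 fold change (x axis) of 1 tested gene in the list named at left, filled where the edgeR adjusted p was under 0.05, with the list median as a vertical line and a small random vertical offset. Filled circles appear in both lists of other p53 targets, 3 and 1 in number, and in none of the remaining pathway lists plotted or the 7 tested genes.

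For each tested gene of the 8, the gene most alike over the 6 libraries was sought among 9000 named genes with a mean of at least 5 CPM, by Pearson's r of log2 CPM. Sesn2 was most like Cdkn1a (r = 0.996), with 172 genes above an r of 0.9. Phlda3 was most like Srsf11 (0.996), with 130 such genes, Ddit4 like Zeb1 (0.992), Sesn1 like Dgkz (0.986), Sesn3 like Cyren (0.993), Tigar like Cdk6 (0.993) and Fdxr like Pygo2 (0.995), with between 75 and 97 such genes each. The 6 points share their libraries and their 2 groups, so these values are descriptions only.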

How the data were processed

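Total RNA of sorted BFU-E was sequenced from libraries made with the Pico version of Takara's stranded SMARTer kit, per the labels. Cells were sorted as GFP-positive, lineage-negative, Kit-positive and low for CD24 and CD71, per the labels, though eGFP reads were few in Cre-negative libraries. The submitters' processing notes name STAR 2.5.3a, RSEM 1.3.0 and the build GRCm39. Neither the annotation release nor the strand handling is given in the sources used here. The authors deposited expected counts, TPM, FPKM and mean and effective transcript lengths per gene, per the file headers. FPKM deposited by the authors was not used.

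Symbols were matched by gene identifier without version for 52081 of 55359 entries. Expected counts, of which 2.64% were not whole, were rounded. Genes passing filterByExpr (13117) were tested with edgeR 4.0.16 under R 4.3.3, by glmQLFit and glmQLFTest with TMM factors of 0.988 to 1.017. P-values were adjusted over all of them by Benjamini and Hochberg's method, with a threshold of 0.05. Dividing the log2 fold change by the square root of F gave the standard error (SE). The common biological coefficient of variation was 85.4%. CPM uses TMM-scaled totals, and TPM is as deposited and entered no count test. On counts simulated with edgeR's own estimate of the spread of each gene, DESeq2 made more false calls than edgeR or limma-voom. Because edgeR's model set those counts, the comparison does not rank the tools on the real counts. Nothing says whether samples of a group came from separate embryos or pools, and p-values measure the spread between these samples, which may be technical. Log2 CPM of library pairs correlated at 0.778 to 0.832 across genes. Alternatives used DESeq2 1.42.0, limma-voom (limma 3.58.1), other scalings, no low-count filter, length offsets, the replicate number as a block and each library left out. Of an entry pair with 1 symbol the one with more counts was used.

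The 8 genes and all lists were chosen with earlier results of these data known. Named were the 8 genes, Exosc3, Trp53, Cdkn1a and Mdm2, up to 3 genes of smallest p and every called gene from each pathway list, and the most alike genes. Car2, eGFP, Phlda1, Phlda2, Ddit4l, Tsc1, Tsc2, Mtor, Prdx1, Fdx1, Fdx2, Cyp11a1, Atf4, Atf3, Chac1, Gfral, Ret and the overlapping genes were named outside that rule, after values were seen. Coding and UTR sequences came from GENCODE release M21, whose build (GRCm38) differs from that of the files, so no coordinates are given.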

Additional observations from a re-analysis of the deposited data

How the results depend on the processing

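Sesn2, Phlda3, Ddit4 and Sesn1 kept a positive log2 fold change under all 14 alternatives. Of the 8 genes 1 was called higher without a filter on low counts (Sesn2), 1 by DESeq2 (Sesn2) and 0 to 1 with each library left out, where Phlda3 was called without Cre-negative replicate 1. Both Cre-negative libraries left in that fit had 0 counts of Phlda3, so the call is no support for a difference. Sesn3 turned from -0.06 to 1.00 with effective length offsets and ranged from -0.56 to 0.23 with each library left out, positive when Cre-negative replicate 3 (0.23) or 1 of the Cre-positive replicates 1 (0.08) and 2 (0.21) was absent. Tigar turned to 1.37, Pik3cd to 0.16 and Fkbp5 to 0.41 with effective length offsets, and Fdxr ranged from -0.57 to 0.09 with each library left out, positive without Cre-positive replicate 2. None of these was called, and the cause was not tested.

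Over all genes 16 were called higher and 0 lower by edgeR. Without the low-count filter the counts were 33 and 6, by DESeq2 235 and 218, and with effective length offsets 6 higher. Leaving out each library gave 7 to 15 higher and 0 to 3 lower. On the pathway lists, with 200 tested genes, 4 were called higher and 0 lower, 10 higher without the filter, 19 higher and 3 lower by DESeq2, and 4 to 7 higher and 0 lower with each library left out. Over all genes edgeR called 0.122% higher, and DESeq2 1.81% higher and 1.68% lower. The 4 edgeR calls lay in both lists of other p53 targets (3 and 1). Of the 19 higher by DESeq2, 14 and 3 lay there. Those lists were chosen with earlier results of these data known.

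The replicate numbers are not said to mark litters. Deviations from group means correlated at 0.026, 0.053 and 0.073 between same-numbered samples, each the highest for its sample. Samples of unlike number correlated at -0.054 to -0.005. Whether the numbers pair the samples was not tested. The replicate block gave 38 higher and 18 lower genes over all, 12 higher on the pathway lists and 0 of the 8 genes (adjusted p of 0.0759 for Sesn2 and 0.0985 for Phlda3), with Lpin1 (0.0204), Trp53inp1 (0.0364) and Mdm2 (0.0272) among those gained. Genes seen in 1 library only had a median of 108 reads there, about 1 CPM, and Tigar, Ddit4 and Phlda3 each had Cre-negative values near that level.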
